A study of Mus musculus with 3 samples.

Results

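The interferon response and antigen presentation module is a list of 43 mouse genes that cells switch on after interferon, together with the core genes of class I antigen presentation. Its members were picked by gene symbol for their known roles, with earlier results of these data known, and 42 of the 43 symbols were found among 32285 genes; Mx1 was not analysed here. The study measured single-cell gene expression in the medial prefrontal cortex of mice with the 10x Genomics 3′ assay, in 1 library of estrous females, 1 of diestrous females and 1 of males, each made from 2 mice pooled. The labels name no strain, age or treatment, so the groups are known by cycle stage and sex alone. The labels call the material neurons, but only 10.3%, 11.0% and 9.19% of the cells kept from the estrus, diestrus and male libraries carried the marker genes of glutamatergic neurons and 1.07%, 1.46% and 1.25% those of GABAergic neurons. Endothelial cells, microglia and other glia made up most of the rest, and the module is described here across 9 cell classes.

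Type I interferons bind a receptor on the cell surface, and the kinases on that receptor phosphorylate STAT proteins, which join IRF9 to form a complex that enters the nucleus. There the complex binds the interferon-stimulated response element (ISRE) in the promoters of antiviral genes, among them the IFIT family, Isg15, the OAS proteins and the guanylate binding proteins. Class I antigen presentation uses an overlapping set of interferon-induced genes: proteasome subunits cut cytosolic proteins, a transporter moves the peptides into the endoplasmic reticulum, and a class I heavy chain with beta-2 microglobulin carries them to the surface. In the brain, endothelial cells and microglia are known for interferon responses, whereas neurons are known for low class I levels.

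The promoters of some members hold the element through which the pathway acts, and the windows that hold it are printed for a selection of these genes. Promoter sequence of 250 bases before to 50 after the start, from RefSeq on GRCm38.p6, was matched for 36 of the 42 members. The ISRE core, searched as GAAANNGAAA on both strands, was in the promoters of 18 of those 36 members, or 50%, against 3.99% of all 27025 genes with a promoter and 51.2% of 41 other interferon-induced genes. In the windows, given 5′ to 3′ along the strand of the gene, the bases of the core and the matches that overlap it are in capitals with 12 bases on each side, and a core on the opposite strand reads as TTTC, any 2 bases, TTTC.
Isg15, chr4:156200863-156200908, minus strand: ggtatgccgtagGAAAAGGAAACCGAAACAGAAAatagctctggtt
Ifit1, chr19:34640773-34640825, plus strand: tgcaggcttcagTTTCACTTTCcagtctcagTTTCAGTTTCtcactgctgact
Ifit3, chr19:34583361-34583428, plus strand: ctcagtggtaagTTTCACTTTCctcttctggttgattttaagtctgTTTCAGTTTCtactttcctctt
Ifit3b, chr19:34607757-34607824, plus strand: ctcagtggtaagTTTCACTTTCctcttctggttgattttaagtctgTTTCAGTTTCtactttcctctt
Rsad2, chr12:26456551-26456584, minus strand: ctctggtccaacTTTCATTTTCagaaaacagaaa
Bst2, chr8:71537575-71537614, minus strand: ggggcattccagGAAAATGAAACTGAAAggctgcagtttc
Gbp2, chr3:142620592-142620625, plus strand: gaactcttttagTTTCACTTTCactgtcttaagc
Gbp7, chr3:142530271-142530304, plus strand: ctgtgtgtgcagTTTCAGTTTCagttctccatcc
Cxcl10, chr5:92349081-92349114, minus strand: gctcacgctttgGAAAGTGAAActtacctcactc
B2m, chr2:122147536-122147569, plus strand: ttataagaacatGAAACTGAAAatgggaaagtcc

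The first capital lay 78 bases before the start of Isg15, 104 before Ifit1, 156 before Ifit3, 188 before Ifit3b, 120 before Rsad2, 130 before Bst2, 59 before Gbp2, 53 before Gbp7, 213 before Cxcl10 and 139 before B2m. The Ifit3 and Ifit3b windows were identical over their whole length. By role and counted by gene, the core was in at least 1 promoter of 9 of 14 IFIT and antiviral effectors and 3 of 3 guanylate binding proteins. It was in at least 1 promoter of 4 of 9 sensors and other induced genes, 1 of 4 nuclear and signalling factors and 1 of 6 class I genes. The gamma-activated site, searched as TTCNNNGAA on both strands, was in the promoters of 27.8% of the 36 members and 9.55% of all genes with a promoter. A match is a description of these letters and not a bound site.

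The 3 libraries held 152291602 (estrus), 144738154 (diestrus) and 115632520 (male) unique molecular identifiers (UMIs), and 12718, 14689 and 16135 cells were kept. A cell was put in a class that held at least 60% of its marker UMIs, where there was one. In the estrus, diestrus and male libraries 1097, 2688 and 3199 cells stayed ungated, or 8.63%, 18.3% and 19.8% of those kept. A further 434, 1558 and 1196 cells fell in an erythroid gate outside the 9 classes. The classes held 2688, 2324 and 1867 endothelial cells, 338, 386 and 350 pericytes, 3216, 2468 and 2423 microglia, and 62, 81 and 50 border macrophages in the estrus, diestrus and male libraries. The 10 endothelial markers together, Cldn5 and Flt1 among them, stood at 17480, 18040 and 17640 CPM (counts per 1000000 UMIs of the class) in endothelium and at 0.514%, 0.366% and 0.355% of that level in glutamatergic neurons. The pericyte gate held 1155, 543.5 and 581.1 CPM of the same endothelial markers, or 6.61%, 3.01% and 3.3% of their endothelial level. Endothelium itself held 1629, 756.6 and 825.9 CPM of the oligodendrocyte markers, most in the estrus library. Those markers stood at 20660, 18510 and 18630 CPM in oligodendrocytes. The border macrophage gate held 2068, 2561 and 2420 CPM of the microglial markers, which stood at 18150, 18530 and 18260 CPM in microglia. Between 68 and 97 barcodes occurred in each pair of libraries, and no count of called members moved by over 1.5 times without the 109, 99 and 93 gated cells that carried one.

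Most members were higher in endothelium than in pericytes, microglia or neurons. Classes were compared with edgeR's quasi-likelihood test on UMIs summed per library and class, with the library as a block, and a member was called when its Benjamini-Hochberg adjusted p was under 0.05 and its difference at least 2-fold. Over pericytes, 38 of 42 members were called higher in endothelium and 0 lower, where 12.9% and 9.32% of all 17363 genes tested were called higher and lower. Over microglia, 30 were higher and 1 was lower, against 17.5% and 17.1% of all genes. Over neurons, 42 were higher and 0 lower, against 25.9% and 24.8%. The median log2 difference of the members was 2.82, 1.64 and 6.25 in these 3 comparisons and that of all genes 0.137, 0.113 and 0.0778. By unadjusted p under 0.05 with no limit on the fold, 0 members were lower than in pericytes and 0 lower than in neurons, and DESeq2 also called 0 lower in both.

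Most members were higher in microglia than in other glia and in other glia than in neurons, while under 50% were called between microglia and border macrophages. Of the 42 members, 0 were called higher and 17 lower in microglia than in border macrophages, against 7.82% and 5.11% of all genes. In microglia over the mean of astrocytes, oligodendrocytes and their precursors, 31 were higher and 0 lower, against 18.6% and 21.6%. In those other glia over neurons, 31 were higher and 0 lower, against 21.9% and 18.3%. The median log2 difference of the members was -1.15, 2.51 and 1.97, and that of all genes 0.290, -0.0779 and 0.137. At an unadjusted p under 0.05 with no limit on the fold, 1 member was higher in microglia than in border macrophages, 3 were lower in microglia than in other glia and 1 was lower in other glia than in neurons, and DESeq2 called 0 in each. Without the diestrus library, 10 members were called lower in microglia than in border macrophages in place of 17. All classes were fitted together, so these p-values rest on a spread shared by all classes and not on that of the compared classes alone. Because the 3 libraries differ in cycle stage and sex, that shared spread is one over 3 unlike libraries.

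**Figure D1:**
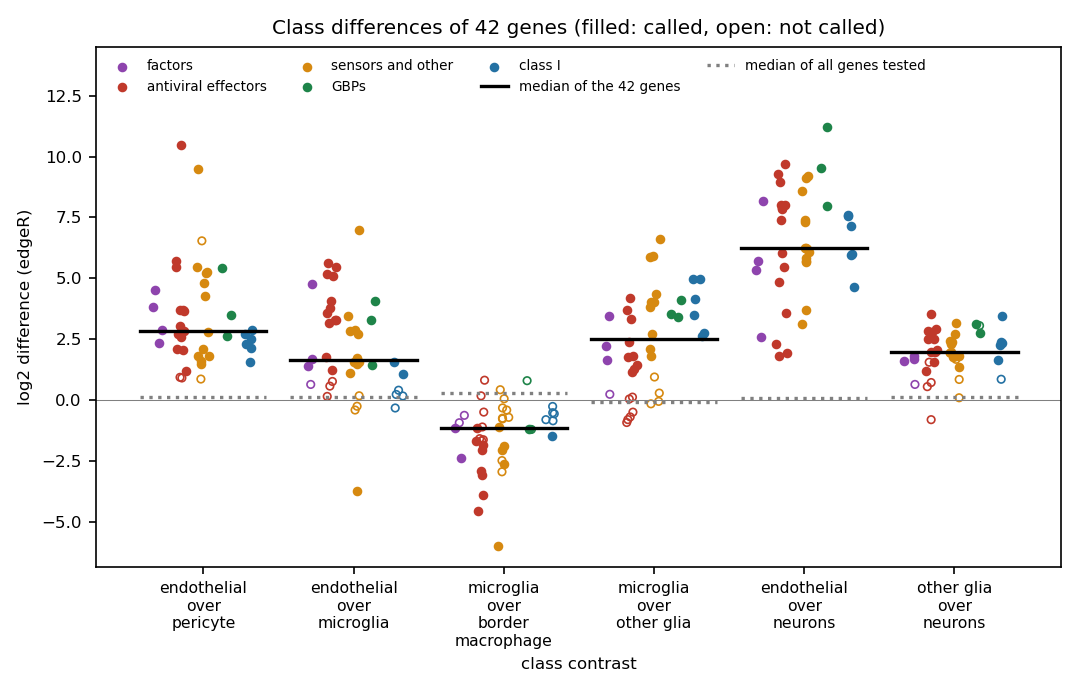
Log2 difference of each of the 42 members in the 6 comparisons of cell classes, as fitted by edgeR over 3 libraries, with members grouped by role. Filled points passed the call, open points did not, and bars mark the median of the members (solid) and of all genes tested (dotted). Endothelium lay above neurons for all 42 members, and microglia lay below border macrophages for the 17 members called there.

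By mean CPM over the 3 libraries, 30 of the 42 members were highest in endothelium, 11 in border macrophages and 1, Ifit2, in oligodendrocyte precursors. Over the libraries, 21 of the 30 and 8 of the 11 did not overlap the class with the next-highest mean. For 18 of the 30 that next class was border macrophages. The share of all genes that are highest in each class was not computed, nor was the share that do not overlap the next class. These counts therefore have no background. The means compare 1 gene between classes and not genes with each other, since gene lengths differ.

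**Figure D2:**
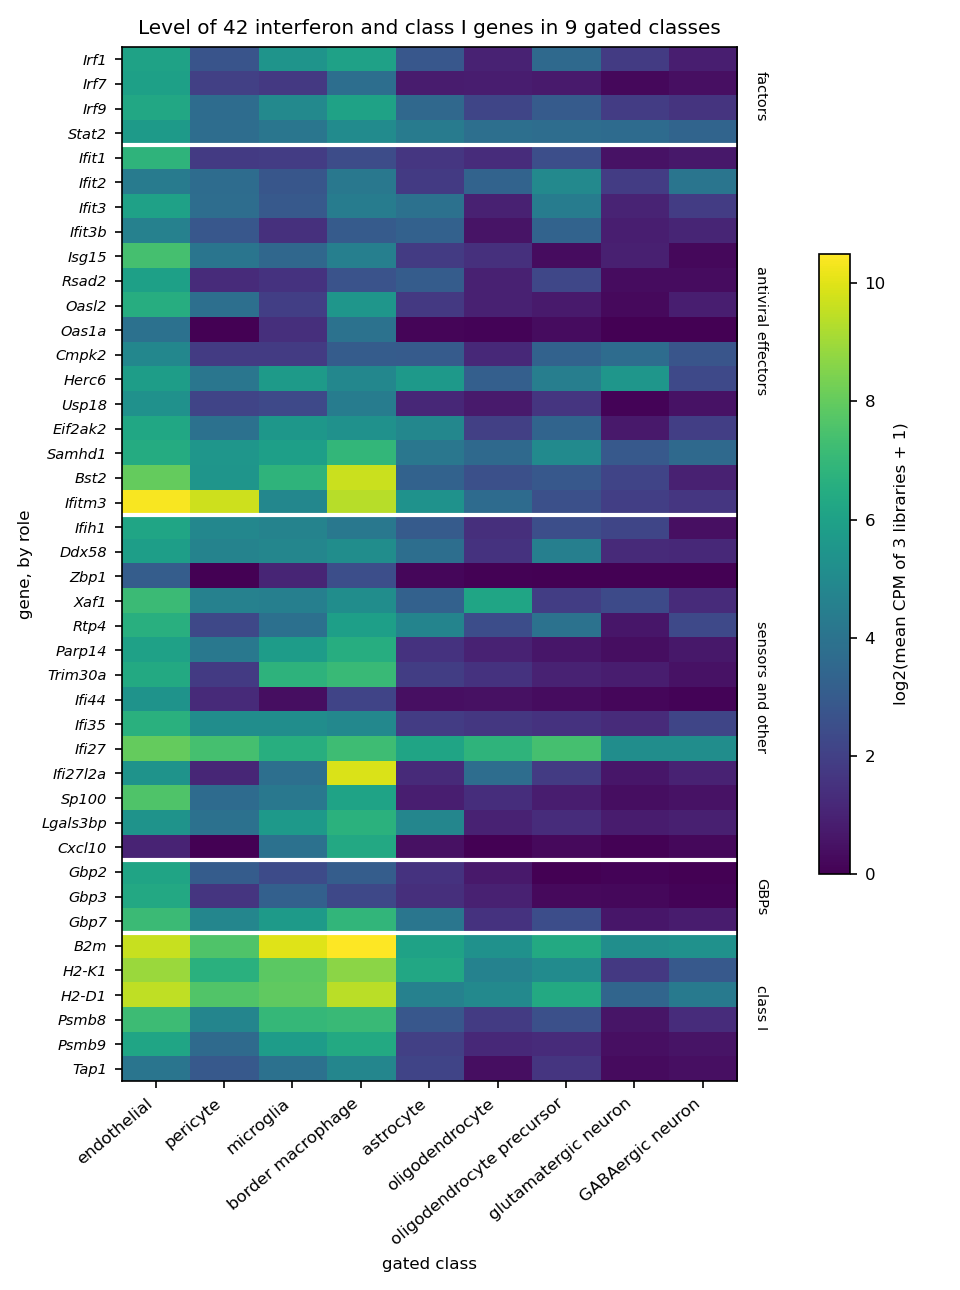
Mean CPM of each member (rows, by role) in each of the 9 cell classes (columns) over the 3 libraries, on a log colour scale. The endothelial and border macrophage columns hold the highest level for 41 of the 42 members, and the neuron columns are low for most.

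The nuclear and signalling factors of the module were higher in endothelium than in neurons and pericytes, and Irf7 had the largest differences of the 4. All 4 were called higher in endothelium than in pericytes and in neurons, and 3 higher than in microglia. In microglia 2, Irf7 and Irf9, were called lower than in border macrophages, and both lost that call without the diestrus library. Of all genes, 12.9%, 25.9% and 17.5% were called higher in endothelium than in pericytes, neurons and microglia. Lower in endothelium than in microglia were 17.1%, and lower in microglia than in border macrophages 5.11%. These shares are the background of the counts by role below. Irf7, the factor that amplifies interferon transcription, stood at 67.0 (estrus), 69.8 (diestrus) and 45.6 (male) CPM in endothelium. It stood at 2.10, 2.83 and 2.01 CPM in microglia and at 6.06, 1.79 and 1.18 CPM in pericytes, so that every endothelial library lay above every library of both other classes. Its log2 difference was 4.76 over microglia (standard error 0.211, adjusted p = 5.80e-16) and 4.54 over pericytes (standard error 0.306, adjusted p = 5.87e-12) by edgeR's quasi-likelihood test. Irf9, the DNA-binding partner of the STAT complex, stood at 71.7, 85.4 and 74.8 CPM in endothelium, and its log2 difference over microglia was 1.40. Stat2, a STAT protein of that complex, stood at 54.9, 57.8 and 44.4 CPM in endothelium. Its log2 difference over neurons was 2.57, among the smaller ones in the module, and its level in neurons was 10.48 CPM. Irf1, a factor that both interferon types induce, stood at 61.3, 65.1 and 70.0 CPM in endothelium and overlapped there with border macrophages, whose mean was 63.1 CPM. Over microglia Irf1 was not called, at a log2 difference of 0.64 that is under 2-fold (adjusted p = 0.00416 by edgeR).

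The IFIT genes and other antiviral effectors were mainly endothelial, with Bst2, Samhd1 and Oas1a higher on average in border macrophages and Ifit2 in oligodendrocyte precursors. Of these 15 genes, 13 were called higher in endothelium than in pericytes, 12 higher than in microglia and 15 higher than in neurons, and 8 were called lower in microglia than in border macrophages. Without the diestrus library that last count was 4, with Ifit2, Ifit3, Samhd1 and Usp18 lost. Isg15, a ubiquitin-like protein that is conjugated to other proteins, stood at 203, 167 and 139 CPM in endothelium, 170 ± 32.3 (SD, n = 3 libraries), and at 11.3, 7.60 and 11.8 CPM in microglia. The lowest endothelial library was far above the highest microglial one. The log2 difference of Isg15 was 4.08 over microglia (adjusted p = 2.37e-14) and 3.66 over pericytes by edgeR. Ifit1, which binds foreign RNA, stood at 104, 151 and 79.2 CPM in endothelium. It was nearly absent from the other classes, with 1.76, 4.06 and 2.01 CPM in microglia and 3.46, 2.69 and 1.18 CPM in pericytes, and with 14, 58 and 25 UMIs among all oligodendrocytes. The log2 difference of Ifit1 was 5.48 over microglia and 8.01 over neurons.

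Ifit3 and Ifit3b are near-identical copies on chromosome 19 that lie between Ifit2 and Ifit1, at 34583531 to 34588731 and 34607970 to 34613401 on mm10, and reads can pass between them, so their separate levels are uncertain. Ifit3 stood at 55.6, 73.7 and 63.4 CPM in endothelium and Ifit3b at 20.2, 26.9 and 22.7 CPM. Both were called higher there than in microglia, by 3.29 and 3.795 on the log2 scale. Ifit2, from the same cluster, differed from its neighbours: it stood at 32.5, 23.7 and 32.7 CPM in oligodendrocyte precursors, at 16.4, 24.6 and 17.95 CPM in endothelium and at 19.0, 13.2 and 15.6 CPM in GABAergic neurons. The precursor and endothelial ranges overlapped. Ifit2 was not called between endothelium and pericytes (log2 difference 0.93, adjusted p = 0.00915 by edgeR, under 2-fold).

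Ifitm3, a membrane protein that blocks virus entry, was shared by the vessel wall. It stood at 1180, 1383 and 1507 CPM in endothelium, at 1025, 736 and 754 CPM in pericytes and at 382, 747.5 and 832 CPM in border macrophages. Microglia had a mean of 28.2 CPM, below every library of those 3 classes. The log2 difference of Ifitm3 was 5.62 for endothelium over microglia (adjusted p = 1.07e-14) and -4.54 for microglia over border macrophages (adjusted p = 6.25e-12) by edgeR. Over pericytes it was 0.90, with an adjusted p of 0.00411 but under 2-fold, and so not called. Bst2, the tether that holds budding virus at the membrane, stood at 608, 908 and 915 CPM in border macrophages, at 290, 257 and 234 CPM in endothelium and at 120.5, 94.7 and 120 CPM in microglia. The 3 classes did not overlap, and the log2 difference of microglia over border macrophages was -2.90. Samhd1, an enzyme that breaks down nucleotides, stood at 147.5, 127 and 98.3 CPM in border macrophages against an endothelial mean of 86.6 CPM.

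The other effectors had endothelial means from 14.3 CPM for Oas1a, which makes the messenger that activates RNase L, to 90.95 CPM for its relative Oasl2. Rsad2, an enzyme that makes an antiviral nucleotide, stood at 34.5, 80.2 and 70.9 CPM in endothelium, the only effector there whose highest library was over 2-fold above its lowest. Oas1a had 0 UMIs in pericytes and in GABAergic neurons of every library, which makes endothelium at least 4.86-fold and 18.9-fold higher with a floor of 3 UMIs per library. Herc6, an ISG15 ligase in mouse, was also found outside the vessels. Its mean was 52.1 CPM in microglia, which overlapped with endothelium at 57.2 CPM. The log2 difference between these 2 classes was 0.15 and did not pass edgeR's test (adjusted p = 0.503). Herc6 stood at 50.2, 40.3 and 44.4 CPM in glutamatergic neurons and at 2.34, 5.65 and 4.15 CPM in GABAergic neurons, with no overlap, and at 49.4 CPM on average in astrocytes. Cmpk2, a mitochondrial nucleotide kinase next to Rsad2, had its second-highest mean in glutamatergic neurons, where it stood at 11.02, 12.79 and 12.17 CPM.

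Sensors and other induced genes were divided between endothelium and macrophages. Of these 14 genes, 12 were called higher in endothelium than in pericytes, 10 higher and 1 lower than in microglia, and 5 lower in microglia than in border macrophages. The RNA sensors Ifih1 and Ddx58 had endothelial means of 71.7 and 58.2 CPM and were called higher than in microglia by 1.55 and 1.12 on the log2 scale, of which the Ddx58 call was lost without the diestrus library and with no filter on low counts. Sp100, a nuclear body protein, stood at 172, 235 and 170 CPM in endothelium, and its log2 difference over neurons was 9.22. Xaf1, which antagonises an inhibitor of apoptosis, stood at 122, 159 and 141.5 CPM in endothelium and at 59.75, 64.6 and 89.1 CPM in oligodendrocytes. In oligodendrocyte precursors Xaf1 stood at 2.79, 2.96 and 2.51 CPM, below every oligodendrocyte library. Ifi35, a protein with a leucine zipper, stood at 117.5, 98.8 and 85.2 CPM in endothelium, and its second-highest mean was 34.55 CPM in pericytes. Trim30a, a ubiquitin ligase family member, was instead highest in the macrophage lineage, at 178, 104 and 136 CPM in border macrophages and 119, 116 and 88.7 CPM in microglia, which overlapped. Lgals3bp, a secreted binding protein of galectins, stood at 66.2, 141 and 106 CPM in border macrophages.

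Ifi27 and Ifi27l2a lie side by side on chromosome 12 (103434211 to 103440239 and 103442167 to 103443680 on mm10) and belong to 1 family, but their levels differed by class. Ifi27, a mitochondrial membrane protein, was found in every class: its mean was 261 CPM in endothelium, 170 in pericytes, 169.5 in oligodendrocyte precursors, 151 in border macrophages and 113 in oligodendrocytes. In glutamatergic neurons it stood at 32.0, 36.7 and 34.45 CPM. Ifi27l2a stood at 364 (estrus), 1771 (diestrus) and 726 (male) CPM in border macrophages, from 121, 628 and 96 UMIs, and at 42.7, 46.2 and 34.7 CPM in endothelium. The lowest border macrophage library was far above the highest endothelial one, while the 3 macrophage libraries were themselves far apart. The log2 difference of Ifi27l2a in microglia over border macrophages was -6.00 (standard error 0.488, adjusted p = 1.32e-09) by edgeR.

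Cxcl10, the chemokine that draws T cells through the receptor CXCR3, was the only member called lower in endothelium than in microglia. It stood at 24.1, 141 and 75.6 CPM in border macrophages, from 8, 50 and 10 UMIs, and at 3.07, 17.1 and 21.95 CPM in microglia, from 54, 194 and 175 UMIs. In endothelium it stood at 0.179, 1.81 and 1.23 CPM, from 3, 20 and 7 UMIs, and pericytes held 0 UMIs. Its log2 difference was -3.75 for endothelium over microglia (adjusted p = 1.10e-08) and -2.64 for microglia over border macrophages (adjusted p = 1.46e-05) by edgeR. The microglial UMIs came from few cells: 16 of 3216, 26 of 2468 and 28 of 2423 microglia held any Cxcl10, or 0.498%, 1.05% and 1.16%, against 1 of 1311, 1 of 1609 and 2 of 1483 glutamatergic neurons. Median depth was 5320.5, 4469 and 3271 UMIs in those microglia and 38535, 28173 and 14868 UMIs in those neurons.

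The guanylate binding proteins, GTPases that attack the vacuoles of pathogens, were high in endothelium, and Gbp7 also in border macrophages. Gbp7 stood at 136, 165 and 120 CPM in endothelium and at 144.5, 95.9 and 113.5 CPM in border macrophages, which overlapped. Gbp2 and Gbp3 had endothelial means of 69.0 and 80.4 CPM, and their next-highest class means were 7.59 CPM in border macrophages and 8.29 CPM in microglia. Gbp2 had 0 UMIs in oligodendrocyte precursors and GABAergic neurons of every library, so that endothelium was at least 29.2-fold and 91.3-fold higher with the same floor. All 3 were called higher in endothelium than in pericytes, microglia and neurons.

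Class I antigen presentation was the group in which microglia came closest to endothelium. Of these 6 genes, 2 were called higher in endothelium than in microglia, at a median log2 difference of 0.315, against 6 over pericytes and 6 over neurons. Endothelium was not tested against border macrophages for any member. B2m, the light chain of class I, stood at 1202, 906 and 894 CPM in microglia, at 912, 818 and 640 CPM in endothelium and at 1427, 1568 and 1339 CPM in border macrophages. Microglia and endothelium overlapped, and their log2 difference of -0.33 did not pass the test (adjusted p = 0.0716 by edgeR). H2-D1, a heavy chain, stood at 937, 660 and 569 CPM in endothelium, 638, 663 and 718.5 CPM in border macrophages and 292, 214 and 226 CPM in microglia. H2-K1, the other heavy chain, stood at 570, 504 and 370 CPM in endothelium and at 260, 221 and 216 CPM in microglia. For both heavy chains endothelium lay above microglia in every library, by 1.57 and 1.06 on the log2 scale. H2-K1 and H2-D1 share long stretches of sequence, so reads can pass between them. The H2-K1 difference is close to 2-fold, and its call was lost under 5 of the alternative settings.

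None of the 3 peptide supply genes was called between endothelium and microglia. Psmb8, a subunit of the immunoproteasome, stood at 159, 141.5 and 135 CPM in endothelium and at 159, 107 and 112 CPM in microglia. Its log2 difference was 0.23 over microglia (adjusted p = 0.243 by edgeR) and 7.58 over neurons. Psmb9, another such subunit, and Tap1, a subunit of the peptide transporter, differed by 0.40 and 0.17 on the log2 scale. The Psmb9 difference passed edgeR's test (adjusted p = 0.0401) but was under 2-fold, and that of Tap1 did not pass (adjusted p = 0.551). These 2 genes overlap on opposite strands, at 34181987 to 34187764 and 34187553 to 34197225 of chromosome 17 on mm10, and the sources used here do not say whether the counting used strand. In neurons the levels were low for this group, with B2m at 38.4 CPM on average in GABAergic and 35.2 CPM in glutamatergic neurons and H2-D1 at 18.45 and 9.81 CPM.

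**Figure D3:**
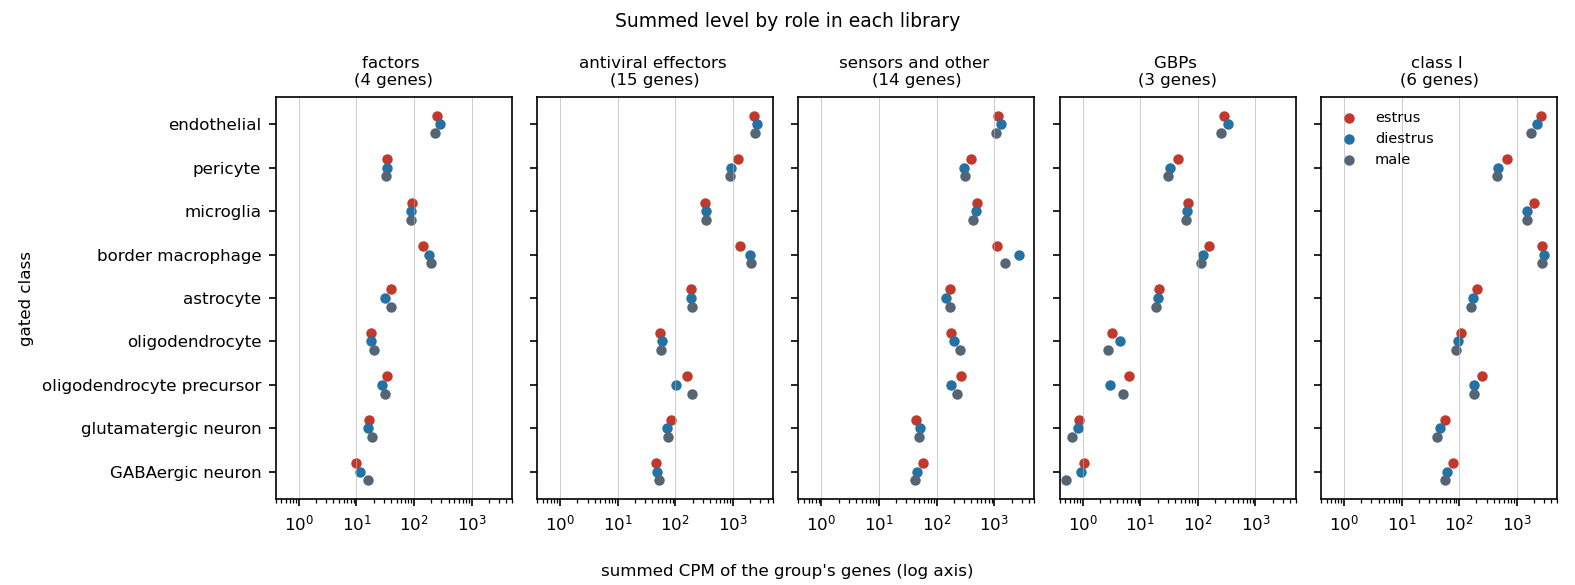
Summed CPM of the members of each role in 9 cell classes, 1 point per library (estrus, diestrus, male) on a log axis. Endothelial class I sums were 2665, 2210 and 1801 CPM against 2002, 1506 and 1509 in microglia, whereas effector sums were 2283, 2628 and 2463 against 332, 337 and 342. Border macrophages had the highest class I sums, 2703, 2936 and 2693 CPM, and effector sums of 1345, 2008 and 2103 CPM.

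Low levels in the other gates were read against the endothelial RNA those gates held. In pericytes, whose endothelial markers stood at 6.61%, 3.01% and 3.3% of their endothelial level, 10, 9 and 10 of the 42 members stood at or below that share, and the median member stood at 18.3%, 14.6% and 14.2%. The single endothelial markers varied, however: the highest stood in pericytes at 54.6%, 49.9% and 54.7% of its endothelial level, and 4, 3 and 2 members were above every marker. In glutamatergic neurons 15, 14 and 12 members stood at or below the marker share, and the median member stood at 0.961%, 1.09% and 0.918% of its endothelial level. The highest single marker stood there at 6.89%, 4.24% and 3.69%, with 6, 7 and 11 members above it. In microglia, with a marker share of 0.746%, 0.991% and 0.937%, the counts were 0, 1 and 0 and the median member stood at 31.0%, 29.8% and 36.8%. In oligodendrocytes, with a marker share of 1.08%, 0.667% and 0.762%, the counts were 9, 1 and 2. The median member stood there at 1.62%, 1.83% and 2.34%. In their precursors, with a marker share of 0.255%, 0.421% and 0.427%, the counts were 14, 7 and 6. In astrocytes, with a marker share of 0.559%, 0.386% and 0.573%, they were 1, 3 and 3. The part of endothelial RNA in the pericyte, neuron and glial levels was not tested.

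The rest of the pathway was divided between the same classes in other ways. Of 10 interferon genes, 0 had enough UMIs to be tested, and Ifnb1 had 1 UMI in all the microglia of the 3 libraries. With no filter on low counts 3 of them were fitted. Of these, 0 were called between endothelium and microglia or pericytes, and 1 was called higher in endothelium than in neurons. Of 8 receptor chains and kinases tested, 1 was called higher and 3 lower in endothelium than in microglia, against 17.5% and 17.1% of all genes. Ifnar1, a chain of the type I receptor, stood at 111, 167 and 160 CPM in endothelium and 43.9, 44.9 and 38.1 CPM in microglia, a log2 difference of 1.77. Ifngr1, a chain of the receptor for interferon gamma, ran the other way, at 65.0, 64.1 and 72.0 CPM in endothelium and 611, 533 and 543 CPM in microglia, a log2 difference of -3.06. Both differences passed edgeR's test, with adjusted p of 6.89e-12 and 1.36e-15.

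Among 8 further STAT and IRF factors, 1 was higher and 3 were lower in endothelium than in microglia. Irf8, a myeloid lineage factor, stood at 251, 247 and 271 CPM in microglia and 4.76, 1.996 and 5.46 CPM in endothelium, and its log2 difference was -5.96. Of 13 nucleic acid sensors, 2 were higher and 8 lower, led by Tlr7, the endosomal sensor of single-stranded RNA, at a log2 difference of -7.04. Of 8 negative regulators, 0 were higher and 4 lower. In 47 other interferon-induced genes, by contrast, 22 were higher and 5 lower. Ly6a, a surface antigen of mouse vessels, stood at 3300, 2751 and 3373 CPM in endothelium against 29.6, 37.3 and 29.7 CPM in microglia, and Ccl12, a chemokine, was the gene of that list with the largest difference the other way, at -6.20. These lists were read off the fit described above and share its background of 17.5% higher and 17.1% lower.

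Among 18 other class I genes, 4 were higher and 0 lower in endothelium than in microglia, with H2-Q4 at 88.75, 85.4 and 49.3 CPM in endothelium and 17.1, 14.4 and 12.04 CPM in microglia. Of 9 class II genes, 0 were higher and 5 lower.

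Within endothelium the 3 libraries were close for most members. With 1 library a group there is no test of cycle stage or sex, so a library difference is given as the log2 ratio of CPM with 1 CPM added, with the exact binomial interval of the ratio itself, which covers counting error only. A ratio counted as past the threshold at 2-fold among genes with at least 100 UMIs over the pair and a mean of at least 20 CPM. In estrus over diestrus within endothelium, 0 of 38 members were past 2-fold higher and 2 lower, against 1.51% and 4.98% of 7089 genes. In estrus over male, 0 of 37 were higher and 1 was lower, against 3.09% and 8.36% of 7224 genes. In diestrus over male, 0 of 38 were past it either way, against 0.12% and 0.347% of 7489 genes.

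Past the threshold were Rsad2 and Ifi44. The endothelial Rsad2 level of 34.5 CPM in estrus rested on 579 UMIs, that of 80.2 CPM in diestrus on 884 and that of 70.9 CPM in the male library on 403, so that the estrus library was the low one. Its log2 ratio was -1.19 for estrus over diestrus (95% interval -1.37 to -1.07) and -1.02 for estrus over male (-1.23 to -0.854). Ifi44, a cytoplasmic protein induced by interferon, stood at 27.02, 61.3 and 35.4 CPM, with diestrus high, and its log2 ratio for estrus over diestrus was -1.15 (-1.36 to -1.01). The scaling by class totals used here puts all genes lower than TMM factors do, by -0.243 in estrus over diestrus and -0.341 in estrus over male, and with TMM factors these 3 ratios were -0.952, -0.679 and -0.91, inside 2-fold.

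In endothelium estrus was the highest library for 10 members, diestrus for 30 and male for 2, Ifitm3 and Irf1. The 10 were the class I genes B2m, H2-K1, H2-D1, Psmb8 and Psmb9, the effectors Isg15, Bst2 and Oas1a, and Ifi27 and Ifi35, whereas the class I gene Tap1 was highest in diestrus. The share of all genes highest in each library was not computed. This order depends in part on the scaling: in estrus over diestrus, 9 of 38 members had a log2 ratio above 0 with class totals (median -0.263) and 17 with TMM factors (median -0.0226). The median over all genes was -0.101 with class totals and 0.138 with TMM factors, above that of the members under both. The log2 ratio of estrus over male was 0.72 for H2-D1 (0.666 to 0.776), 0.62 for H2-K1 and 0.51 for B2m. With TMM factors the H2-D1 ratio was 1.06, past 2-fold. In diestrus over male, 34 of 38 members had a log2 ratio above 0, with a median of 0.389 against -0.000598 for all genes, and the largest was Ifit1 at 0.92 (0.782 to 1.09), or 1.02 with TMM factors. Median depth was 4723.5, 3674 and 2240 UMIs in estrus, diestrus and male endothelial cells, and its part in these ratios was not tested.

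**Figure D4:**
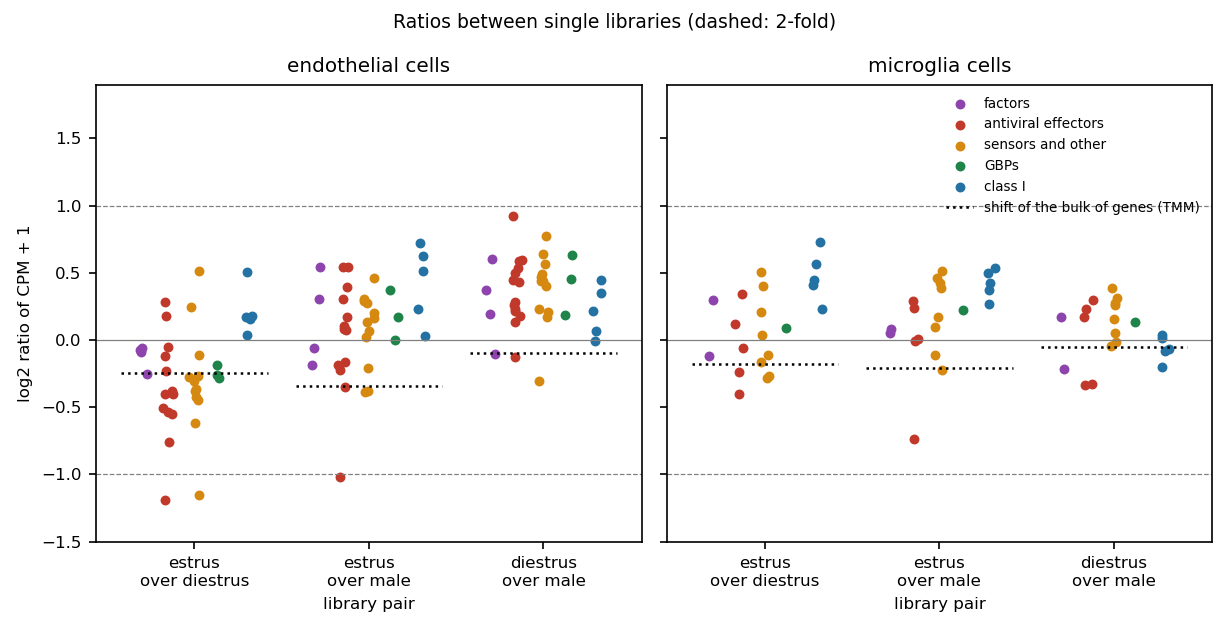
Log2 ratio of CPM + 1 between libraries in endothelium (left) and microglia (right), 1 point per member with at least 100 UMIs over the pair and a mean of 20 CPM, with dashed lines at 2-fold and dotted lines at the shift between TMM factors and the scaling used. In endothelium Rsad2 and Ifi44 are the members past 2-fold, and H2-D1 is the highest in estrus over male at 0.72.

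In microglia, 0 of 21 members were past 2-fold in any library pair, against 0.573% of genes higher and 3.9% lower in estrus over diestrus, 1.02% and 6.26% in estrus over male, and 0.0553% and 0.166% in diestrus over male. Cxcl10 was under the minimum of 20 CPM in microglia. With a minimum of 5 CPM it was past 2-fold in estrus over diestrus and in estrus over male, from the 3.07, 17.1 and 21.95 CPM given above. Class I sums were highest in the estrus library here too, at 2002 CPM against 1506 and 1509.

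In the other 7 classes together, 105 ratios could be formed for members, of which 1 was past 2-fold higher and 3 lower, against 0.799% and 1.21% of all genes. Among classes with at least 200 cells in each library the only one was Ifitm3 in astrocytes, at 24.6 CPM in estrus and 51.2 in male, a log2 ratio of -1.03 (-1.33 to -0.794) and -0.906 with TMM factors. The others were in the small border macrophage class, where ratios past 2-fold were more frequent over all genes, at 8.48% lower in estrus over diestrus, 4.53% lower in estrus over male and 4.01% higher in diestrus over male: Ifi27l2a for estrus over diestrus (-2.28) and diestrus over male (1.29), and Ifitm3 for estrus over male (-1.12, or -0.918 with TMM factors). Ifi27l2a in oligodendrocytes was under the minimum of 20 CPM but far apart between libraries, with estrus at 1.57 CPM, diestrus at 20.4 CPM and the male library at 15.05 CPM, from 25, 430 and 417 UMIs. In the estrus library 14 of 1711 oligodendrocytes held it, or 0.818%, against 79 of 1904 (4.15%) and 126 of 3462 (3.64%).

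A share of the endothelial cells held several interferon-induced members at once. Each cell was thinned to 1000 UMIs, and the cells with 3 or more of 24 interferon-induced members were counted. The 24 were the antiviral effectors and the sensors and other induced genes, without Bst2, Ifitm3, Ifi27, Lgals3bp and Eif2ak2. Of the genes left out, Bst2 and Lgals3bp had their highest mean in border macrophages and the others in endothelium. Shares with these genes counted were not computed. In endothelium they were 17.4% in estrus (exact 95% interval 15.9 to 18.9), 23.9% in diestrus (22.1 to 25.8) and 14.9% in male (13.3 to 16.7). These intervals cover counting over cells and no spread between animals, so the order of the libraries was not tested. Thinning left out 51, 198 and 201 shallower endothelial cells, and without thinning the shares were 73.4%, 67.9% and 42.9%, in the same order as the median depths given above.

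The shares in the other classes were lower at this depth. Border macrophages came next, with 6.56%, 12.7% and 4.17% from 4, 10 and 2 cells. At 2000 UMIs a cell they held 24.1%, 27.4% and 38.2%, from 58, 73 and 34 cells, against 43.1%, 53.5% and 39% in endothelium, so that the male values were close. Microglia held 1.25%, 2.10% and 1.10% at 1000 UMIs and pericytes 0.906%, 0.543% and 0%. Among glutamatergic neurons there were 0 of 1310, 0 of 1604 and 0 of 1479, which allows shares of up to 0.229%, 0.187% and 0.203%. These limits are on cells with UMIs and not on cells that express the genes. Without thinning, the deeper neurons held 26%, 17.9% and 10%.

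Cells with 6 or more of the 24 members were rare. They numbered 37, 57 and 26 in endothelium and 4, 10 and 3 in microglia. Of the 57 endothelial cells in diestrus, 41 held Isg15 and 33 held Ifit1. Both genes are among the 24 by which these cells were picked, so their frequency there follows in part from the choice. At 1000 UMIs, Isg15 was in 16.6%, 13.9% and 11.5% of all endothelial cells, against 0.0763%, 0.125% and 0.0676% of glutamatergic neurons and 0.906%, 0.781% and 0.97% of microglia. The endothelial marker Cldn5 was in 0.534%, 0.935% and 0.879% of the same neurons at that depth.

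**Figure D5:**
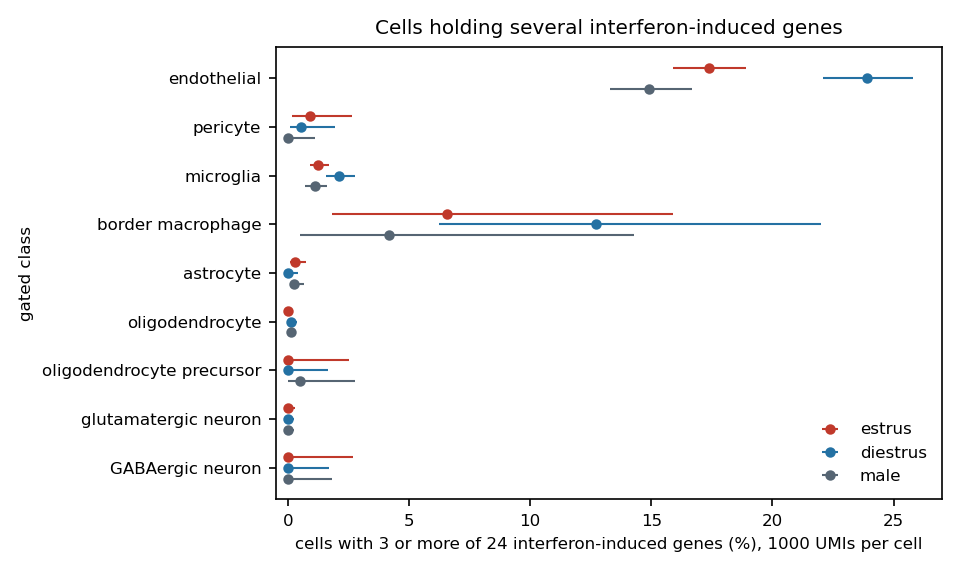
Percent of cells, thinned to 1000 UMIs, with 3 or more of 24 interferon-induced members, for each class and library, with exact 95% binomial intervals. Endothelial cells sit at 17.4%, 23.9% and 14.9%, and microglia at 1.25%, 2.10% and 1.10%.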

How the data were processed

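Per the labels' protocols, papain-dissociated prefrontal cells were run on 10x Genomics 3′ v3.1 chips. The authors deposited a matrix of raw UMI counts per gene and barcode for each library; Cell Ranger 3.0.2 and mm10 stand in the submitters' processing notes, whereas the file headers name version 7.0.0. The sources used here do not give the annotation, intron counting, use of strand or cell calling. Deposited counts were used without correction for free RNA.

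Cells were kept with at least 500 genes, at most 15% mitochondrial UMIs and a doublet score of at most 0.3 (Scrublet in scanpy 1.11.5); the caller's own threshold marked 681, 555 and 0 cells, 0 of them in the male library, so 1 limit was used for all. A cell was gated to the class with at least 60% of its marker UMIs and at least 3 markers. These limits were set after the data were seen.

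UMIs were summed per library and class and fitted with edgeR 4.0.16 in R 4.3.3 (quasi-likelihood, TMM, filterByExpr, library as a block), tested on simulated data; DESeq2 1.42.0 was an alternative. P-values and standard errors rest on the spread over 3 libraries of 2 pooled mice each, in 1 fit shared by all classes. CPM is per 1000000 UMIs of nuclear genes of a class. Intervals are exact and cover counting error only. Gene positions are from GENCODE M21, matched for 42 members. Members and lists were chosen with earlier results of these data known. Members with a mean of at least 100 CPM in a class, those past 2-fold between libraries in a class of at least 200 cells, Cxcl10, Ifit3, Ifit3b, Ifi27 and Ifi27l2a are given by library, and up to 4 of the largest called differences are named from each pathway list; other genes were named after their values were seen. Alternatives covered scaling, the low-count filter, the test, the block, gates, doublets, the mitochondrial limit, thinning and each library left out.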

Additional observations from a re-analysis of the deposited data

Results flagged for a closer look

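Signal of the module was also seen in gated cells outside the 9 classes compared. Ifitm3 stood at 300.6 CPM in the smooth muscle gate of the estrus library (480 UMIs in 203 cells), 344.8 CPM in diestrus (454 UMIs in 211 cells) and 315.7 CPM in male (139 UMIs in 72 cells). B2m stood at 1622 CPM in the T cell gate of the estrus library (143 UMIs in 17 cells), 1784 CPM in diestrus (51 UMIs in 6 cells) and 1325 CPM in male (42 UMIs in 7 cells). The causes of both were not tested.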

How the results depend on the processing

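Of 190 calls of members in the 6 class comparisons, 167 were made under every alternative run. Members called lower in microglia than in border macrophages numbered 17, but 11 with a mitochondrial limit of 5% and 10 to 18 with a library left out, the lowest without diestrus. Members called lower in microglia than in other glia numbered 0, but 1 with DESeq2's size factors in edgeR and 0 to 2 with a library left out. In all, 4 differences changed sign: Usp18 in microglia over border macrophages with the stricter gate (0.407), and 3 with a library left out, namely Parp14, other glia over neurons, which ran from -0.579 (without male) to 1.56, Sp100, other glia over neurons, from -0.148 (without diestrus) to 2.08, and Trim30a, other glia over neurons, from -0.091 (without diestrus) to 1.91. For stage and sex, no paired analysis was possible because each group has 1 library. The class comparisons pair the classes within a library by the block, and without it 1 call was lost, Oas1a in other glia over neurons. Leaving out cells with shared barcodes was chosen after seeing the data.
In endothelial estrus over diestrus, TMM factors gave 0 members past 2-fold and 17 of 38 above 0, where the main scaling gave 2 and 9. In diestrus over male they gave 1 where the main scaling gave 0, and in estrus over male adding 5 CPM gave 0 where adding 1 CPM gave 1. In microglia, a minimum of 5 CPM gave 1 each in estrus over diestrus and estrus over male, in place of 0.
Shares of endothelial cells with 3 or more members (estrus, diestrus, male) were 43.1%, 53.5% and 39% at 2000 UMIs and 73.4%, 67.9% and 42.9% without thinning. With 2 or more members they were 36.3%, 45.2% and 33.1%, and with 4 or more 7.96%, 12.1% and 6.66%. In microglia the same settings gave 4.81%, 6.24% and 4.03%, 28.5%, 22.6% and 11.2%, 6.5%, 7.24% and 4.63%, and 0.438%, 1.07% and 0.485%. In both classes diestrus was highest in each but without thinning. Border macrophages held 24.1%, 27.4% and 38.2% at 2000 UMIs.
Of 38 levels of at least 100 CPM, 6 moved by over 1 SD without the 10 most abundant genes. Border macrophages (50 to 81 cells a library) and GABAergic neurons limit the smallest differences, and the 3 libraries allow no test of stage or sex.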

Other observations

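Class II antigen presentation, which displays peptides from outside the cell, had another pattern than class I. In microglia over border macrophages, 3 of 9 class II genes were called higher and 4 lower by edgeR's quasi-likelihood test, against 7.82% and 5.11% of all genes. All 9 were called higher in microglia than in other glia, against 18.6% of all genes. Cd74, the invariant chain, stood at 328, 47.95 and 658 CPM in border macrophages (estrus, diestrus, male) and at 23.1, 34.3 and 21.95 CPM in microglia. H2-Eb1, a class II chain, stood at 244 and 219 CPM in the estrus and male border macrophages, from 81 and 29 UMIs, and had 0 UMIs in the diestrus library. The same diestrus library held the highest Ifi27l2a level in border macrophages, 1771 CPM.

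Ifngr2, the second chain of the receptor for interferon gamma, stood at 207, 208 and 186 CPM in microglia and 29.4, 23.95 and 30.1 CPM in endothelium. Ifi203, a DNA sensor of the mouse, was called lower in microglia than in border macrophages and higher in endothelium than in microglia, with 81.3, 93.3 and 82.3 CPM in pericytes and 0.398, 0.795 and 0.251 CPM in microglia.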
